A study of Mus musculus with 6 samples.

Results

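The microRNAs described here are 8 that are known from brain and neurons: mmu-miR-9, mmu-miR-124a, mmu-miR-128a, mmu-miR-128b, mmu-miR-137, mmu-miR-138, mmu-miR-153 and mmu-miR-219, written below without the species prefix. They were chosen by name, as every mouse microRNA probe of the array whose description names one of them with any arm ending, which gave 8 of 334 mouse microRNA probes. Each has 4 spots on every array. All 8 names were found, and all 8 probes passed the filter on dim signals. That filter accepts either dye: all 8 passed through the reference dye Cy5 on all 6 arrays, and 6 of the 8 also met it through Cy3, the dye of the embryoid bodies' own RNA. The other two, miR-137 and miR-153, did not.

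MicroRNAs are short RNAs that pair through their seed, bases 2 to 8, with sites in messenger RNAs and lower the output of those messages. In the vertebrate nervous system miR-9 is expressed in neural progenitors and miR-124a in neurons, and both act on genes that keep cells non-neuronal or proliferating. Embryoid bodies are aggregates in which embryonic stem cells start to differentiate into derivatives of all germ layers, so neural microRNAs serve in them as markers of the neural lineage.

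Mature sequences from RefSeq (GRCm38.p6) are shown for 7 of the 8 members. The seed decides which messages a microRNA can pair with, and probe likeness decides which signals can mix. No sequence or locus is given for miR-124a, which does not mean that RefSeq lists none. The capitals mark the seed.
miR-9: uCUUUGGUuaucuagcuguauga
miR-128a and miR-128b: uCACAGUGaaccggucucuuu
miR-137: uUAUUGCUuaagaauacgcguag
miR-138: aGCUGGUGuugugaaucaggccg
miR-153: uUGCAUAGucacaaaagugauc
miR-219: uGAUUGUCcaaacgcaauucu
The 6 distinct sequences carry 6 distinct seeds, so that among these 7 members miR-128a and miR-128b alone have a seed in common, and RefSeq lists them as one mature microRNA. The probes of miR-128a and miR-128b are complementary to that sequence and are printed as DNA without the stem that all probes share, with the base that differs in capitals.
miR-128a probe: Aaaagagaccggttcactgtgaccaca
miR-128b probe: Gaaagagaccggttcactgtgaccaca
They differ at 1 base, A1G, counted from the probe's 5′ end and lying opposite a position past the end of the mature sequence, so the signals of these 2 probes may be shared and are not 2 independent measurements. For the other members the closest probe of another microRNA differed at 10 or 11 of the first 22 bases. Probes were compared base by base from the same start, so likeness at a shifted position was not counted. The probe of miR-138 is complementary to 17 of the 23 bases of the RefSeq sequence and that of miR-9 to 22 of 23.

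In GRCm38.p6, miR-9 comes from 3 loci, at chr3:88215613-88215635 within Gm3764, chr7:79505279-79505301 within Mir9-3hg and chr13:83738821-83738843 within C130071C03Rik, all on the plus strand. miR-128 comes from chr1:128202404-128202424 (plus strand) within R3hdm1 and chr9:112118644-112118664 (minus strand) within Arpp21. miR-137 lies at chr3:118433901-118433923 on the plus strand in no other listed gene. miR-138 comes from chr8:94324312-94324334 within Nup93 and from chr9:122682898-122682920, both on the plus strand. miR-153 lies at chr12:117250860-117250881 on the plus strand within Ptprn2. miR-219 comes from chr2:29845689-29845709 within Cercam and chr17:34025052-34025072, both on the minus strand. A probe reads the mature microRNA and cannot tell its loci apart.

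Total RNA came from mouse embryoid bodies collected on day 7, grown from embryonic stem cells of strain 129S7/SvEv Brd-Hprt b-m2 that carry human BRCA1, a tumour suppressor of DNA repair. The RQ group carries it with the missense change R1699Q, the MI group with M1652I, and the WT group in wild-type form; both changes lie in the C-terminal BRCT repeats. Each group has 2 arrays from samples called biological replicates, and since no label says that they came from separate cultures, p-values cover no more than how far these samples vary, in part perhaps for technical reasons. Whether each form is 1 cell clone, and the state of the mouse's own Brca1 gene, are not given in the sources used here. By the labels, Cy3 belongs to each group's RNA and Cy5, on all 6 arrays, to RNA of wild-type embryoid bodies as a reference, without a dye swap.

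Some features of the arrays touch every value below. On negative-control spots, the mean net Cy3 signal (spot minus local background, in intensity units) was 93.05 and 102.8 on the RQ arrays, against 43.79 and 59.37 on the MI arrays and 59.44 and 43.84 on the WT arrays. The median of the same spots was lower, at 54 and 61 on the RQ arrays, 37.8 and 42.5 on the MI arrays and 34.3 and 28.2 on the WT arrays. Between 241 and 255 of 334 probes were well above background in Cy3 and between 262 and 271 in Cy5, where a probe counts as well above background on an array if over 0.5 of its spots are marked so by the scanner. The scanner marked 99 of 1336 mouse microRNA spots as outliers on RQ replicate 1, against 60 to 66 on each other array. All arrays lay on 1 slide with 1 scan. RQ and MI arrays shared a row of that slide and WT arrays had another, so a difference of either mutant from WT and a difference between rows cannot be told apart. Within the shared row MI had columns 1 and 2 and RQ columns 3 and 4, so RQ against MI and slide column cannot be told apart. The number of arrays limits the precision.

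The log2 ratios of Cy3 over Cy5 of the 8 neural microRNAs were mostly low on the WT arrays. They are given as a description, with no test against 0. For miR-137 and miR-153 Cy3 was not above background, and they passed the filter through Cy5 alone. Such a passage favours a low ratio, so these members add no support to the counts below. The 6 members that also passed through Cy3 all had WT means below 0. On the WT arrays the mean log2 of Cy3 over Cy5 was below 0 for 8 of 8, where 47.3% of the tested microRNAs were below 0, below -1 for 5 of 8, where 27.9% were, and below -3 for 3 of 8 (miR-9, miR-128a and miR-128b), where 9.86% were. Their median was -1.62, against 0.09 over all tested microRNAs. On single WT arrays miR-138 was above 0 once, at 0.19. In RQ and in MI, too, all 8 loess means were below 0, where the share over all tested microRNAs was not counted. Not every net Cy3 signal was dimmer than net Cy5, however. In RQ Cy3 averaged 95.7 against 41.8 for miR-153, 529.6 against 491.6 for miR-138 and 50.9 against 50.2 for miR-137. In MI it averaged 41.1 against 37.9 for miR-153. For the other members Cy5 was the brighter dye in both groups, as it was for miR-137 and miR-138 in MI. On the WT arrays all 8 means were also below 0 with median centring and with the scanner's processed signals. With median centring the members' median was -2.23, against -0.016 over all tested microRNAs, of which 50.3% were below 0. With the processed signals it was -3.99, against -0.79 over all tested microRNAs, of which 56.5% were below 0. A ratio compares 2 dyes as well as 2 RNAs, and without a dye swap the dye's part was not tested. In these bulk RNAs, the share of neural cells and the amount of microRNA per cell cannot be told apart, and the low ratios are not read as a deficit of either.

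The 2 dyes also differed in microRNAs of the stem cells from which embryoid bodies start. Of 10 tested microRNAs of pluripotent stem cells (of the miR-290 and miR-302 groups), 10 were well above background in Cy3 on all 6 arrays. In Cy5, 2 were so on all 6 arrays, 3 on 1 to 5 arrays and 5 on 0, and their median log2 ratio on the WT arrays was 5.13. Of 6 blood microRNAs, 3 were above background on all arrays in Cy3 and 6 in Cy5, with a median of -3.35. The liver microRNA miR-122a had -2.92, and the medians were -0.55 over 5 microRNAs of muscle and heart and -0.40 over 7 epithelial ones. The labels give wild-type embryoid bodies for the WT arrays in either dye, yet the ratios of blood, liver and neural microRNAs lay below 0 at the median and those of the pluripotent ones above it. The ratios are not read as levels against wild type, and groups are compared with each other.

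**Figure D1:**
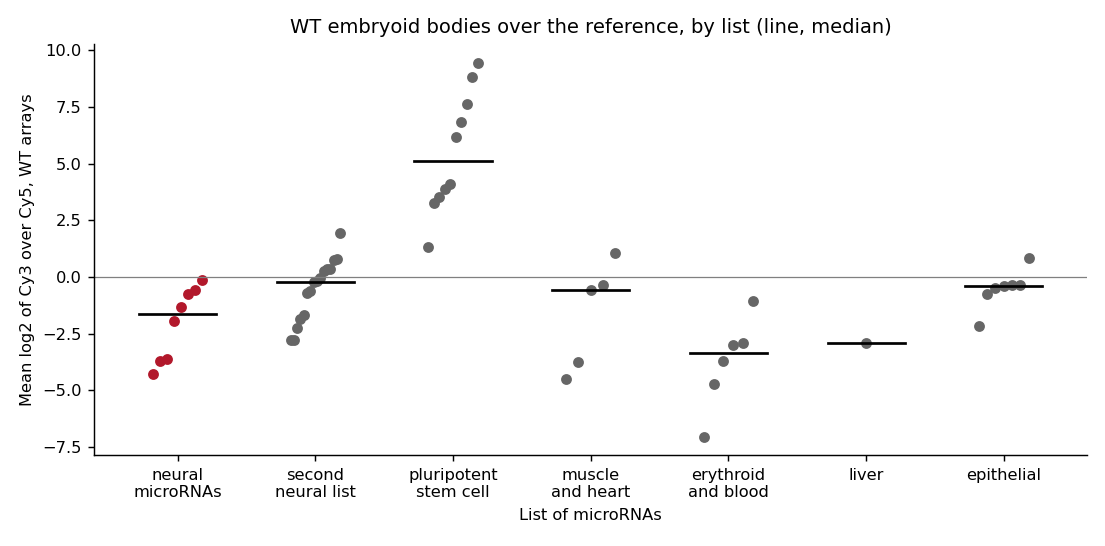
Mean log2 ratio of Cy3 (WT embryoid bodies) over Cy5 (reference) on the WT arrays for each tested microRNA of each list, with a line at the list's median. The 8 neural microRNAs (red) all lie below 0, blood microRNAs have the median -3.35, and the pluripotent ones lie above 0 with the median 5.13. Of the neural ones, miR-137 and miR-153 passed the filter on dim signals through Cy5 alone, which favours a low ratio.

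miR-9, of neural progenitors, had the lowest ratio to the reference of the 8. Its net Cy3 signal was 70.3 and 92 on the RQ arrays, 55 and 63.7 on the MI arrays and 68.7 and 54.5 on the WT arrays. Its Cy5 signal was 1079 and 1046 beside RQ, 1031 and 1315 beside MI and 1577 and 1390.1 beside WT. These Cy3 signals lie at about the mean of the negative controls and above their median on each array. miR-9 was well above background in Cy3 on 1 of 2 RQ arrays, 0 of 2 MI arrays and 2 of 2 WT arrays. The mean log2 ratio was -4.20 ± 0.21 in RQ, -3.94 ± 0.34 in MI and -4.27 ± 0.15 in WT (SD, n = 2 arrays each). Since Cy3 lies at about the mean of the negative controls and was not above background on every array, no fold against the reference is given. The array values of the groups overlap in each comparison. RQ minus WT was 0.08 ± 0.20 (log2, SE), with a 95% interval of -0.42 to 0.57, and MI minus WT was 0.34 ± 0.20, with an interval of -0.16 to 0.83. As miR-9 was not well above background in MI, no fold of its own signal is given there, and the adjusted p of the fitted difference was 0.262 (limma).

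miR-124a, an abundant microRNA of vertebrate neurons, was measured well above background in both dyes on all 6 arrays. Its net Cy3 signal was 1221 and 1111 on the RQ arrays, 678.5 and 807 on the MI arrays, and 690 and 728 on the WT arrays. Both RQ arrays were brighter than the other 4. The Cy5 signal was 4852 and 4839.8 beside RQ, 5512 and 5629 beside MI and 6348 and 6124 beside WT, so the reference was dimmest beside RQ. Averaged over arrays, Cy3 was 1.64 times as bright in RQ as in WT, where the median tested microRNA was 1.35 times as bright, and Cy5 was 0.777 times, against a median of 0.834.

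How this difference is scaled decides its direction. With loess, which bends with signal brightness, the log2 ratio of miR-124a was -2.50 and -2.46 on the RQ arrays, -2.44 and -1.69 on the MI arrays and -2.23 and -1.64 on the WT arrays. RQ minus WT was then -0.54 ± 0.29 (SE), with a 95% interval of -1.26 to 0.18 and an adjusted p of 0.245 (limma). With each array centred on its median instead, the ratios were -2.43 and -2.57 in RQ, -3.12 and -2.97 in MI, and -3.44 and -3.16 in WT. On that scale RQ was higher than WT by 0.80 (adjusted p = 0.0053, limma) and higher than MI by 0.54 (adjusted p = 0.0405, limma). With Cy3 alone RQ minus WT was 0.29 (adjusted p = 0.273), and with the scanner's processed signals 0.14 (adjusted p = 0.549). Median centring moved the median of all tested microRNAs by 0.095 in RQ minus WT and by 0.18 in RQ minus MI. No direction of miR-124a is therefore given here.

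miR-128a and miR-128b, of maturing neurons, gave close values through their near-identical probes. The net Cy3 signal of miR-128a was 157 and 140.3 on the RQ arrays, 116.5 and 121 on the MI arrays and 138.2 and 102 on the WT arrays. That of miR-128b was 170.2 and 165 in RQ, 111 and 128.2 in MI and 140.2 and 117 in WT. In Cy5, miR-128b had 1629.8 and 1682 beside RQ, 1933 and 2006 beside MI and 2406 and 2358 beside WT, so its reference signal, like its own, differed between groups. Both probes were above background in both dyes on all arrays. The mean log2 ratio of miR-128b was -3.25 ± 0.06 in RQ, -3.35 ± 0.19 in MI and -3.64 ± 0.09 in WT (SD, n = 2 each), and both the RQ and the MI arrays lay above both WT arrays. RQ minus WT was 0.39 ± 0.13 for miR-128b (SE, 95% interval 0.06 to 0.71, adjusted p = 0.0900, limma) and 0.25 ± 0.17 for miR-128a (interval -0.18 to 0.67, adjusted p = 0.349, limma). MI minus WT was 0.29 ± 0.13 for miR-128b and 0.34 ± 0.17 for miR-128a, with adjusted p of 0.174 and 0.206 (limma). With loess both thus lay above WT in either mutant without passing the test, and with the processed signals below it in both, at -0.36 for miR-128a in RQ and -0.21 in MI. miR-128b passed the test with median centring, at 0.45 in RQ minus WT (adjusted p = 0.0166, limma), and its difference was -0.029 when Cy3 was taken alone and -0.23 in the processed signals.

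miR-137, which acts in neural progenitors and in dendrite growth, was dim in both dyes. Its net Cy3 signal was 47.8 and 54 in RQ, 52.1 and 46.3 in MI and 41.8 and 32.1 in WT, below the mean of the negative controls on 5 of the 6 arrays. Against their median, miR-137 lay below on the RQ arrays and above on the MI and WT arrays. It was well above background in Cy3 on 0 of 2 arrays of each group, so no fold of its own signal is given. Cy5 was between 47.7 and 65.9. The mean log2 ratio was -0.89 in RQ, -0.75 in MI and -0.76 in WT. The difference RQ minus WT was -0.12 ± 0.11 (SE, 95% interval -0.40 to 0.15, adjusted p = 0.467, limma), and MI minus WT was 0.016 ± 0.11 (interval -0.26 to 0.29).

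miR-138, which acts at dendritic spines, was the member closest to the reference. In Cy3 its net signal was 554.5 and 505 on the RQ arrays, 385 and 439.7 on the MI arrays and 437 and 522 on the WT arrays. Its Cy5 signal was 511 and 472 beside RQ, 504 and 584 beside MI and 557 and 563 beside WT. In Cy3 both RQ arrays lay above both MI arrays, and the WT arrays overlapped each mutant. The log2 ratio was -0.04 and -0.12 in RQ, 0.10 and -0.21 in MI and -0.47 and 0.19 in WT, so that the WT pair spanned both mutants. The difference RQ minus WT was 0.05 ± 0.23 (SE, 95% interval -0.52 to 0.63) and MI minus WT 0.08 ± 0.23 (interval -0.49 to 0.66). Differences of either sign inside these intervals, which are not adjusted for the number of probes, are compatible with the values of 2 arrays a group. The signs also changed with the scaling.

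miR-153, which acts on proteins of synaptic vesicle release, was with the loess reported here the only member past the threshold, and only in RQ against WT. Its net Cy3 signal was 96.2 and 95.3 on the RQ arrays, 38.9 and 43.2 on the MI arrays and 37.2 and 36.3 on the WT arrays, and its Cy5 signal lay between 37.5 and 47.5 on all 6. In Cy3 both RQ arrays lay above the other 4, where the median tested microRNA was 1.35 times as bright in RQ as in WT and 1.32 times as in MI. The single spots were uneven, from 43 to 180 and from 41 to 166 on the RQ arrays, with 2 and 1 of 4 well above background. They ran from 32 to 47 and 41 to 77 on the MI arrays and from 26 to 62 and 21 to 62 on the WT arrays. The spot ranges of RQ thus overlap those of the other groups. The negative controls of the same arrays had means of 93.05 and 102.8 in RQ, 43.79 and 59.37 in MI and 59.44 and 43.84 in WT. Their medians were 54 and 61 in RQ, 37.8 and 42.5 in MI and 34.3 and 28.2 in WT, below miR-153 on each array. The signal was well above background in Cy3 on 0 of 2 arrays of each group, however. No fold of the microRNA's own signal is given for that reason, and the part of the array background in the difference was not tested.

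The log2 ratio of miR-153 was -0.17 and -0.20 in RQ, -0.52 and -0.56 in MI and -0.59 and -0.54 in WT. RQ was higher than WT by 0.38 ± 0.10 (SE, 95% interval 0.13 to 0.63, adjusted p = 0.0471, limma). That call depends on the loess curve, whose weights were settled after 3 forms of it had been compared. The form reported fits the curve to mouse microRNA spots without those the scanner marked as outliers. With the outliers kept in the curve the difference was 0.38 with an adjusted p of 0.0532 (limma), and with every spot that is no control spot in the curve it was 0.38 with an adjusted p of 0.0562 (limma), so that under both other forms no member was called. Over all alternatives the adjusted p of miR-153 ran from 0.0148 to 0.223, and the difference from 0.32 to 1.12; leaving out any single array of the 6 gave an adjusted p between 0.0678 and 0.223, so that each of them was needed for the call. MI minus WT was 0.03 ± 0.10 (adjusted p = 0.851, limma), and RQ minus MI was 0.35 ± 0.10 (adjusted p = 0.0914, limma).

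miR-219, which promotes the differentiation of oligodendrocytes, the myelin-forming glia, was above background in both dyes on all 6 arrays. The net signal in Cy3 was 89 and 112 on the RQ arrays, 72.5 and 75.7 on the MI arrays and 80.3 and 60 on the WT arrays. The negative controls had means of 93.05 and 102.8 in RQ, 43.79 and 59.37 in MI and 59.44 and 43.84 in WT. Their medians, 54 and 61 in RQ, lay below miR-219 on each array. Its Cy5 signal averaged 125.3 ± 17.9 beside RQ, 142.7 ± 2.4 beside MI and 153.4 ± 5.5 beside WT (SD, n = 2 each). The log2 ratio was -1.03 and -1.05 in RQ, -1.09 and -1.16 in MI and -1.30 and -1.32 in WT, and no 2 groups overlap. With loess none of the differences passed the test: they were 0.27 ± 0.10 for RQ minus WT (SE, 95% interval 0.02 to 0.52, adjusted p = 0.111, limma), 0.18 ± 0.10 for MI minus WT (adjusted p = 0.234, limma) and 0.09 ± 0.10 for RQ minus MI (adjusted p = 0.608, limma). The spots marked as outliers decide this: the brightest spot in Cy3 had 1054 and 960 on the RQ arrays, and with outlier spots kept RQ minus WT was 0.94 (adjusted p = 0.00791, limma) and passed. Under 2 scalings RQ minus WT lay below 0, at -0.090 for Cy3 alone and at -0.19 for the processed signals.

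**Figure D2:**
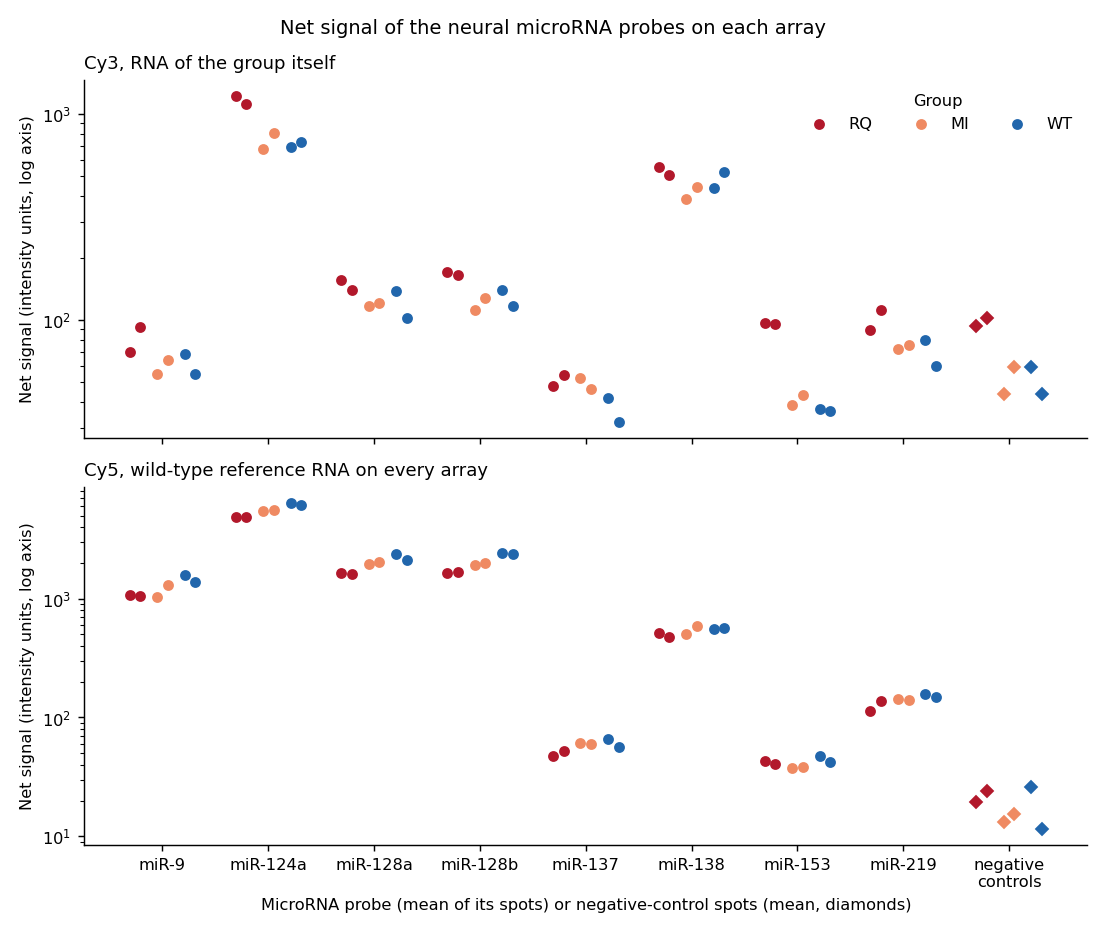
Net signal (intensity units, log axis) of each member on each array, in Cy3 above and Cy5 below, with the mean of the negative-control spots as diamonds; levels are to be compared between groups within a microRNA, not between probes. In Cy3 both RQ arrays lie above the other 4 for 6 of 8 members, not for miR-137 and miR-138. The RQ negative controls, at 93.05 and 102.8, also lie above those of the other arrays. The median tested microRNA was likewise brighter in Cy3 in RQ, 1.35 times as bright as in WT and 1.32 times as in MI. The same count was not made over all tested microRNAs, so it is not read as particular to the members.

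**Figure D3:**
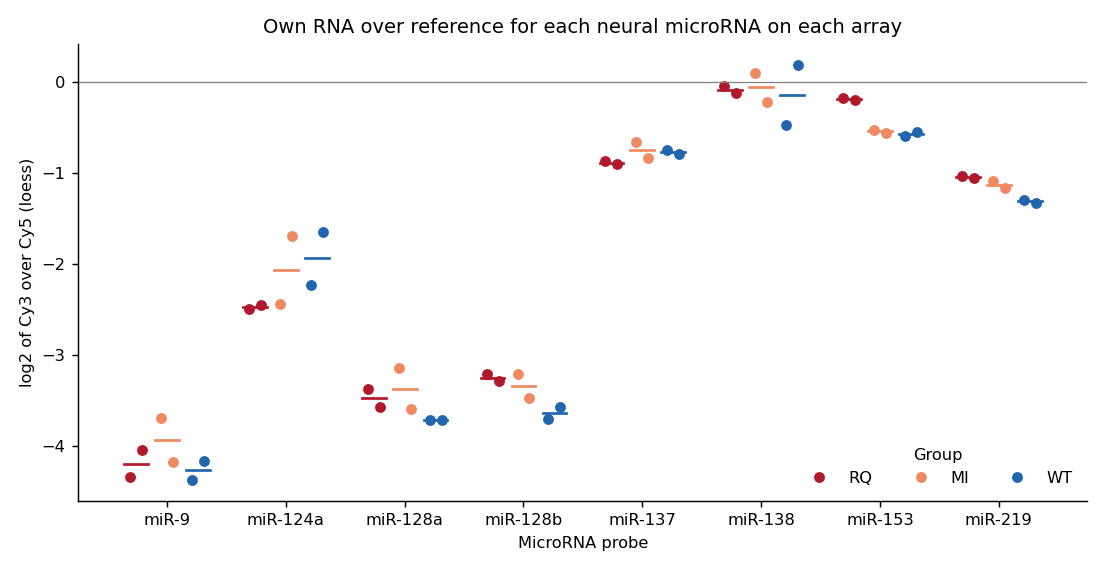
Log2 ratio of Cy3 over Cy5 after loess for each member on each array, with group means as lines. miR-153 lies at -0.17 and -0.20 on the RQ arrays, apart from the other 4, and the WT pair of miR-138 spans from -0.47 to 0.19.

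Set side by side, RQ minus WT had 1 of 8 members called, miR-153 as given above, where 21.4% of all tested microRNAs were called (63 microRNAs, of which 22, or 7.48% of those tested, were higher and 41, or 13.9%, lower). Of the 8 differences, 6 lay above 0, where 52.7% of the tested microRNAs did. The count was 7 under median centring, 2 in Cy3 alone and 3 in the processed signals, so the direction of the 8 depends on the scaling. The median over all tested microRNAs moved as well, to 0.13, -0.0553 and -0.262 in that order. The share of them above 0 was not counted there, so the change is not read as particular to the members. With loess the members' median difference was 0.16, against 0.03 over all tested. The arrays of the 2 groups did not overlap for 6 members, where they did not for 62.6% of the tested microRNAs. At an unadjusted p under 0.05 were 3 members, miR-128b, miR-153 and miR-219, and 110 of all tested microRNAs. With median centring 3 of 8 members were called (37.5%), where 24.8% of all tested microRNAs were.

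MI minus WT had 0 of 8 members called by limma, 0 at an unadjusted p under 0.05, where 15.6% of the tested microRNAs were called (9.18% higher and 6.46% lower) and 108 had such a p. Of the differences, 7 of 8 lay above 0, where 60.2% of the tested microRNAs did, and the median was 0.13 against 0.11 over all. Above 0 were 7 of 8 with median centring and 3 of 8 under Cy3 alone and under the processed signals. The median over all tested microRNAs was then 0.0876, 0.0007 and -0.0545 in that order, and their share above 0 was not counted. The groups did not overlap for 3 members, miR-128a, miR-128b and miR-219, where they did not for 68.4% of all. The largest difference was that of miR-128a, 0.34.

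RQ minus MI had 0 of 8 members called by limma and 1 at an unadjusted p under 0.05 (miR-153), where 10.9% of the tested microRNAs were called (3.06% higher and 7.82% lower) and 78 had such a p. Above 0 were 3 of 8, where 36.4% of the tested microRNAs were, and the median was -0.06 against -0.10 over all. The count above 0 was 7 of 8 under median centring, 4 in Cy3 alone and 5 in the processed signals. Over all tested microRNAs the median was then 0.0844, -0.0306 and -0.106 in that order, and their share above 0 was not counted. The groups did not overlap for 4 members, where they did not for 65% of all. miR-9 had -0.26 ± 0.20 (SE, adjusted p = 0.469, limma) and miR-124a -0.41 ± 0.29 (adjusted p = 0.420, limma). These 3 comparisons share arrays, and so the values of a member in them are not independent.

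**Figure D4:**
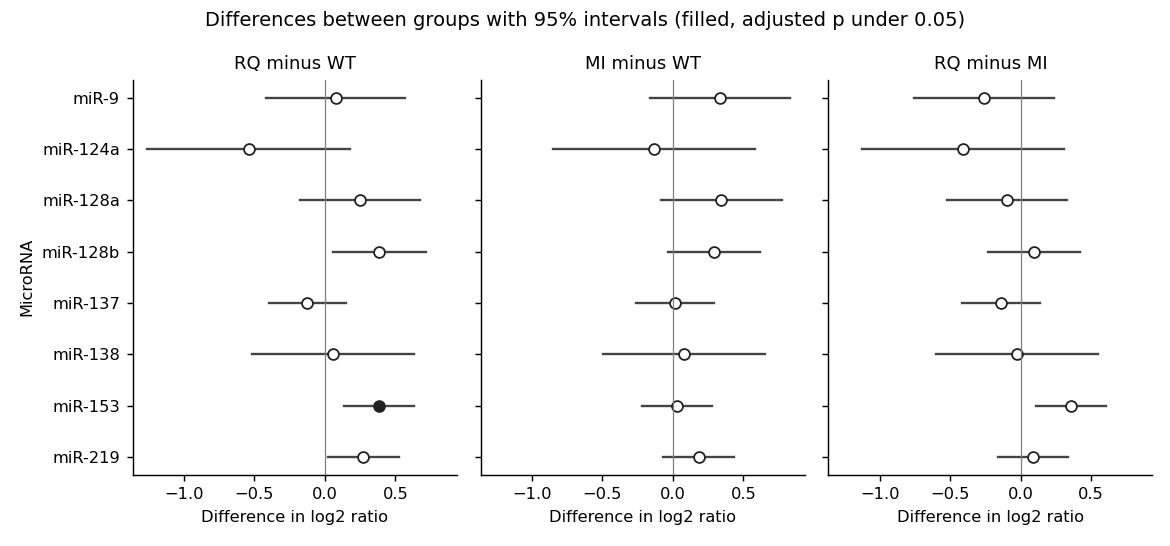
Difference in log2 ratio (point) with its 95% interval (line) for each member in RQ minus WT, MI minus WT and RQ minus MI, from the limma fit on all 6 arrays; filled points have an adjusted p under 0.05. The filled point is that of miR-153 in RQ minus WT at 0.38; the intervals of miR-128b and miR-219 in RQ minus WT and of miR-153 in RQ minus MI also leave out 0 without passing the adjusted test, and the others include it.

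**Figure D5:**
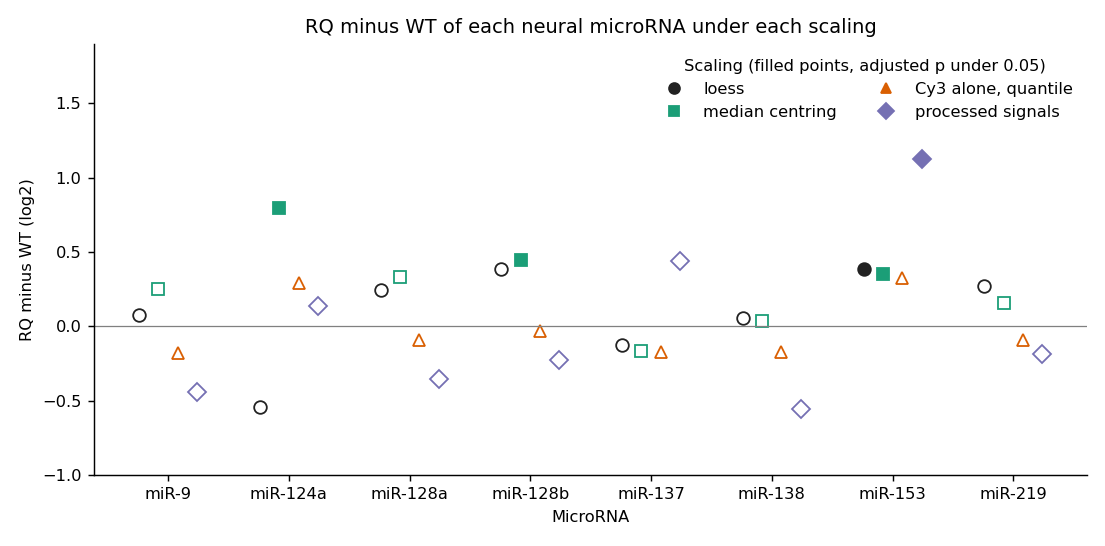
RQ minus WT (log2) of each member under loess, median centring, Cy3 alone and the scanner's processed signals; filled points have an adjusted p under 0.05. miR-124a runs from -0.54 with loess to 0.80 with median centring, and miR-153 is above 0 under each of these scalings, from 0.32 to 1.12.

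Calls were also counted among other microRNAs of brain and neurons. Of a second list of 20, 18 were on the array and 16 were tested (miR-384 and miR-488 were not), and their median ratio on the WT arrays was -0.20. In RQ minus WT, 1 rose and 2 fell (18.8% of the 16 called, against 21.4% of all tested). In MI minus WT, 3 rose and 0 fell (limma; 18.8% against 15.6%), and in RQ minus MI, 0 rose and 2 fell (12.5% against 10.9%). The median differences were 0.20, 0.20 and -0.08.

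miR-7, a microRNA of neuroendocrine cells and neurons, rose in both mutants. Its net Cy3 signal was 513 and 497 on the RQ arrays, 491 and 578 on the MI arrays and 342.5 and 225.5 on the WT arrays, while Cy5 was dimmer beside the mutants, at 258.2 and 258.1 beside RQ, 324 and 302.4 beside MI and 357 and 345.8 beside WT. All 4 mutant arrays were brighter than both WT arrays in Cy3. The median tested microRNA was 1.35 times as bright in Cy3 in RQ as in WT and 1.06 times in MI. In Cy5 that median was 0.834 times for RQ and 0.917 times for MI. For miR-7, the groups compared as follows with loess. RQ minus WT was 0.94 ± 0.14 (SE, adjusted p = 0.00839, limma) and MI minus WT 1.56 ± 0.14 (adjusted p = 0.00375, limma). In MI it passed with median centring (1.01), Cy3 alone (0.96) and the processed signals (1.16) as well; in RQ it passed with median centring (0.88) but not with Cy3 alone (0.42, adjusted p = 0.0875, limma) or the processed signals (0.61, adjusted p = 0.139, limma). RQ minus MI was -0.62 (adjusted p = 0.0390, limma) and missed the threshold under each of these other scalings. Leaving out 1 array, the call in MI held in 6 of 6 fits and that in RQ in 5 of 6, being lost without RQ replicate 1 (adjusted p = 0.0733, limma).

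miR-125a and miR-125b, which are broadly expressed and promote neuronal differentiation of neural progenitors, fell in RQ with loess. miR-125b had a net Cy3 signal of 281 and 275 in RQ, 241.5 and 281 in MI and 371 and 306 in WT, and a Cy5 signal of 5058 and 4938 beside RQ, 5504 and 5907 beside MI and 6885 and 6386 beside WT. RQ minus WT was -1.39 ± 0.24 for miR-125b (SE, adjusted p = 0.0115, limma) and -1.31 ± 0.24 for miR-125a (adjusted p = 0.0137, limma). With median centring they were -0.16 and -0.12 and did not pass (adjusted p = 0.241 and 0.428, limma), and with Cy3 alone they were -0.62 and -0.58 and passed. With the processed signals miR-125b was at -0.70 (adjusted p = 0.0439, limma) and passed, and miR-125a at -0.66 (adjusted p = 0.0552, limma) did not. RQ minus MI was -1.07 for miR-125a, which passed, as it did with Cy3 alone (-0.52, adjusted p = 0.0379, limma) but not with median centring (-0.27, adjusted p = 0.154, limma) or the processed signals (-0.67, adjusted p = 0.0846, limma), and -0.83 for miR-125b (adjusted p = 0.0914, limma). Without RQ replicate 1 neither passed in RQ minus WT (adjusted p = 0.0865 for miR-125b and 0.104 for miR-125a, limma), and miR-125a did not pass in RQ minus MI without any one RQ or MI array (up to 0.218).

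miR-338, a microRNA of oligodendrocytes and neurons, had net Cy3 signals of 87.5 and 97.8 in RQ, 86.6 and 108.5 in MI and 54.8 and 64.3 in WT, with all mutant arrays above both WT arrays. The median tested microRNA was 1.35 times as bright in Cy3 in RQ as in WT and 1.06 times in MI. On both RQ arrays and WT replicate 1, miR-338 lay below the mean of the negative controls (93.05, 102.8 and 59.44). It lay above their median on each array and was well above background in Cy3 on 2 of 2 arrays of each group. In MI minus WT miR-338 rose by 0.82 ± 0.18 (SE, adjusted p = 0.0349, limma) and miR-218, of motor neurons, by 0.45 ± 0.11 (adjusted p = 0.0424, limma). Neither passed with median centring (0.55 and 0.27), Cy3 alone (0.46 and -0.092) or the processed signals (1.56 and 0.10). Leaving out 1 array, miR-338 passed in 1 of 6 fits (without WT replicate 2) and miR-218 in 0 of 6 (limma, adjusted p 0.0583 to 0.233). miR-218 was well above background in Cy3 on 0 of 2 RQ arrays, 1 of 2 MI arrays and 1 of 2 WT arrays. miR-383 had the second largest difference of the list in MI minus WT, 1.45 ± 0.39 (adjusted p = 0.0581, limma). Its log2 ratio was 2.00 and 0.79 in RQ, 2.23 and 2.18 in MI and 0.97 and 0.53 in WT, so that the 2 RQ arrays differed more from each other than their lower one did from WT.

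The patterns of the members over the 6 arrays were compared as a description, by the Pearson correlation of log2 ratios, in which all points share their arrays and fall into 3 groups. miR-128b correlated with miR-219 at 0.929 and with miR-128a, whose probe is near-identical, at 0.842, whereas miR-124a and miR-219 stood at -0.70. Among all other tested probes, the 2 most alike to miR-9 were miR-199b (0.969) and miR-30d (0.938), and those most alike to miR-124a were let-7a (0.939) and miR-29b (0.938). For miR-128a they were miR-431 (0.976) and miR-721 (0.944), and for miR-128b miR-132 (0.972) and miR-699 (0.954). For miR-137 they were miR-192 (0.899) and miR-27a (0.85), and for miR-138 miR-32 (0.873) and miR-666 (0.811). For miR-153 they were miR-155 (0.987) and miR-150 (0.96), and for miR-219 miR-205 (0.965) and miR-449 (0.958). Of these only miR-132 is in either neural list.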

How the data were processed

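MicroRNAs were measured on 6 two-colour arrays (2 each of RQ, MI and WT embryoid bodies), with depth not applicable. Per the file headers, Agilent Feature Extraction (version 9.5.1.1) wrote the deposited scanner files, which hold spot and local background intensity, processed intensity and a log10 ratio of Cy5 over Cy3. The deposited series value table is in log10 units and equalled minus that ratio on all 1932 features, so its direction is Cy3 over Cy5, and the median of each column was 0.

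Intensities were corrected with normexp (offset 50) and loess in limma 3.58.1 (R 4.3.3), with control and outlier-marked spots at weight 0. The log2 of Cy3 over Cy5 was averaged over a probe's remaining spots. Tests covered the 294 of 334 probes for which, on at least 2 arrays, a share of spots over 0.5 stood well above background in either dye. Groups were compared in lmFit and eBayes on all 6 arrays, with Benjamini-Hochberg adjustment over all tested probes, and called at an adjusted p under 0.05. The fit was tested on simulated data.

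The members and lists were chosen with earlier results of these data known. The loess weights were settled after 3 forms had been compared, with their results in view: every spot that is no control spot gave 44 calls in RQ minus WT and 0 members, mouse microRNA spots gave 49 and 0, and mouse microRNA spots without outliers, which is reported, gave 63 and 1. The reported form follows the stated removal of control and outlier spots and gives the counts of the earlier analysis. Named microRNAs are all members, those of the second list that were called or had the 2 largest absolute differences, and the 2 most alike probes of each member. Alternatives were other scalings, offsets, filters and spot rules, a replicate block, fits on 2 groups and leaving out each array. Replicates correlated at 0.987 to 0.994 over microRNAs, which are not independent of one another.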

Additional observations from a re-analysis of the deposited data

How the results depend on the processing

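RQ minus WT had 3 members called with median centring (miR-124a, miR-128b and miR-153; 37.5% of the members, against 24.8% of all tested), 1 with outlier spots kept (miR-219 at 0.94, while miR-153 had an adjusted p of 0.0519, limma) and 0 with Cy3 alone, with the filter on Cy3 only (which drops miR-137 and miR-153), with the replicate block, with either other loess curve, and with only the 2 groups compared. With the processed signals, with offset 16 and with no filter, 1 member was called, miR-153 each time. The call of miR-153 thus held in some settings and not in others. The loess curve was settled after 3 forms had been compared, and the call passes in 1 of them. RQ minus MI had 1 member called with median centring (miR-124a), with Cy3 alone (miR-153) and with offset 16 (miR-153). MI minus WT had 0 members called under every alternative run, by limma. Over all microRNAs, MI minus WT had 27 calls with only the 2 groups compared, against 46. RQ minus MI had 14 with outlier spots kept, 17 with outlier spots kept in the loess curve and 10 with the curve on every spot that is no control spot, against 32. These 2 curve alternatives were chosen after seeing the data.

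Leaving out each array in turn gave 0 members called in all 3 comparisons (0 to 0), and over all microRNAs 5 to 60 calls in RQ minus WT (5 without RQ replicate 1), 6 to 63 in MI minus WT (6 without MI replicate 1) and 0 to 48 in RQ minus MI, with 0 to 1 where an RQ or MI array was left out. A group left with 1 array is assumed to vary like the others. Such fits crossed 0 in RQ minus WT for miR-138 (-0.28 to 0.39) and miR-9 (-0.076 to 0.23), in MI minus WT for miR-138 (-0.25 to 0.41), miR-137 (-0.068 to 0.10) and miR-124a (-0.51 to 0.24), and in RQ minus MI for miR-138 (-0.18 to 0.13), miR-128b (-0.039 to 0.23) and miR-128a (-0.33 to 0.13).

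Apart from these, 50 of the members' differences reversed their sign, 198 kept sign and side of the threshold, and 4 were called and 6 no longer called with the same sign; the cause was not tested. With Cy3 alone, RQ minus WT reversed for miR-219 (-0.090), miR-138 (-0.17), miR-124a (0.29), miR-128b (-0.029), miR-9 (-0.18) and miR-128a (-0.090), MI minus WT for miR-219 (-0.0066), miR-153 (-0.069), miR-138 (-0.15), miR-124a (0.14), miR-128b (-0.091) and miR-9 (-0.18), and RQ minus MI for miR-219 (-0.083), miR-124a (0.15) and miR-9 (0.0037). With the processed signals, RQ minus WT reversed for miR-219 (-0.19), miR-138 (-0.56), miR-137 (0.44), miR-124a (0.14), miR-128b (-0.23), miR-9 (-0.44) and miR-128a (-0.36), MI minus WT for miR-219 (-0.13), miR-138 (-0.39), miR-124a (0.046), miR-128b (-0.27), miR-9 (-0.59) and miR-128a (-0.21), and RQ minus MI for miR-219 (-0.055), miR-137 (0.15), miR-124a (0.091) and miR-9 (0.14). With median centring, miR-124a was at 0.80, 0.25 and 0.54 in RQ minus WT, MI minus WT and RQ minus MI, miR-138 at -0.14 in MI minus WT and 0.17 in RQ minus MI, and miR-9 and miR-128a at 0.062 and 0.20 in RQ minus MI. With offset 16, miR-138 was at -0.0061 in MI minus WT and 0.063 in RQ minus MI, and miR-128a at 0.023 in RQ minus MI. With outlier spots kept, miR-138 and miR-137 were at -0.16 and 0.20 in RQ minus WT, and miR-137 and miR-128b at 0.057 and -0.036 in RQ minus MI. With outlier spots kept in the loess curve, miR-138 was at -0.13 in RQ minus WT and miR-128b at -0.036 in RQ minus MI, and with the curve on every spot that is no control spot at -0.11 and -0.063.

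Samples of the same number did not deviate together beyond 0.0406 to 0.182, with 2 numbers, so the labels' numbers are not taken as a pairing. The replicate block moved the calls over all microRNAs to 59, 39 and 38 in RQ minus WT, MI minus WT and RQ minus MI, with miR-153 in RQ minus WT at an adjusted p of 0.0833 (limma). Higher calls made up 34.9% in RQ minus WT, 58.7% in MI minus WT and 28.1% in RQ minus MI with loess; with median centring they made up 76.7%, 47.5% and 70%, with Cy3 alone 36.7%, 31.6% and 48.5%, and with the processed signals 32.1%, 28.1% and 40.7%. Signal over background limits miR-9, miR-137 and miR-153, whose Cy3 lies near or below the mean of the negative controls, and miR-219 and miR-338 on the RQ arrays. Against the median of those controls, only miR-137 on the RQ arrays was lower.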
